A study of Mus musculus with 24 samples.

Results

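Smooth muscle and myofibroblast contractile genes were followed in cultured fat cell precursors of BAT and vWAT before and after adipogenic induction, with and without knockdown of the lincRNA *H19*. The set held 10 genes, *Acta2*, *Tagln*, *Cnn1*, *Cnn2*, *Myh11*, *Myl9*, *Tpm1*, *Tpm2*, *Actg2* and *Lmod1*, chosen by symbol from the 49452 genes of the expression table, and each had a single row. The cells were 1° cultures of the stromal-vascular fraction (SVF) from C57BL/6 mice, described in the study's methods as males of 6 to 8 weeks, taken from interscapular BAT or from epididymal fat (vWAT). Every culture was nucleofected with either a non-targeting control siRNA (siCtrl) or an siRNA against *H19* (siH19), and RNA was taken before induction (d0) or after 3 days of differentiation (d3), so that depot, siRNA and day gave 8 groups of 3 libraries. No group without nucleofection was measured. The titles of all siH19 samples name the same siRNA, so loss of *H19* and other effects of that siRNA cannot be told apart. BAT tissue could be pooled over animals, and the labels do not say whether the 3 libraries of a group came from separate cultures, so p-values cover the spread between these libraries, which may be technical. Both media held dexamethasone, insulin, IBMX and rosiglitazone for 48 h, and the brown medium also held indomethacin and triiodothyronine, after which vWAT cells were given rosiglitazone and BAT cells triiodothyronine, so depot and medium cannot be told apart at d3.

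Smooth muscle cells, pericytes and myofibroblasts build stress fibres from a small set of actin, myosin light chain, tropomyosin, calponin and transgelin proteins, and fibroblastic precursors in culture make many of the same proteins. Most of these genes are controlled by serum response factor (SRF), which binds a short DNA element called the CArG box together with coactivators of the myocardin family. Unpolymerised actin holds some of those coactivators out of the nucleus. In adipogenesis, precursors round up and take apart their stress fibres as lipid accumulates.

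Promoter sequence is shown because most members moved together and the CArG box is the element known to be shared by such genes. RefSeq promoter windows of 300 bases (250 before and 50 after the start, GRCm38.p6) were held for 7 of the 10 members, *Acta2*, *Cnn1*, *Cnn2*, *Lmod1*, *Myl9*, *Tpm1* and *Tpm2*. A CArG box, 2 C followed by 6 bases that are each A or T and 2 G, reads the same way on both strands. It was found without a mismatch in the windows of *Cnn2* and *Myl9*, and with at most 1 mismatch in 5 of the 7 windows, those of *Acta2*, *Cnn2*, *Lmod1*, *Myl9* and *Tpm1*. Over all 32851 windows listed, 1.63% held an exact box and 21.1% one with at most 1 mismatch. The 30 bases around the exact boxes and around both near matches of *Acta2* are given 5′ to 3′ on the gene's strand, with the box in capitals.
*Cnn2*, chr10:79988534-79988563, plus strand, 56 bases before the start, exact: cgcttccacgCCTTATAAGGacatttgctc
*Myl9*, chr2:156775293-156775322, plus strand, 161 bases before the start, exact: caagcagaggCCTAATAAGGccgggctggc
*Acta2*, chr19:34255438-34255467, minus strand, 84 bases before the start, 1 mismatch: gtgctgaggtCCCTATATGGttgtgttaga
*Acta2*, chr19:34255388-34255417, minus strand, 34 bases before the start, 1 mismatch: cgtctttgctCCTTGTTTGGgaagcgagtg
A match describes the letters only, and its absence from the *Cnn1* and *Tpm2* windows says only that the letters are not in those windows.

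*H19* itself fell under siH19 in all 4 settings. At d0 it averaged 4.36 FPKM against 130 in BAT cells and 1.21 against 11.7 in vWAT cells. At d3 it averaged 13.7 against 89.8 in BAT cells and 0.528 against 8.59 in vWAT cells. FPKM are fragments scaled by transcript length and by library size, so levels of different genes can be set side by side. Summed FPKM ran from 710790 to 841460 per library, the depth relative to the median library, read from the steps between the lowest values, was 0.826 to 0.983 in the 12 BAT libraries and 1.02 to 1.17 in the 12 vWAT libraries, and replicates correlated at r = 0.988 to 0.991 on the log2(FPKM + 1) scale.

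In FPKM most members were abundant, while *Lmod1* was low and *Myh11* near the limit of measurement. The smooth muscle actin *Acta2* ranged from 224 to 1881 FPKM over the 24 libraries, the actin-binding transgelin gene *Tagln* from 194 to 1875, and the tropomyosin *Tpm1* from 105 to 1323. *Tpm2* lay between 105 and 702, the myosin light chain *Myl9* between 28.3 and 463, and the calponins *Cnn1* and *Cnn2* between 12.8 and 390 and between 24.6 and 395. The second smooth muscle actin, *Actg2*, ran from 7.54 to 74.5 FPKM, and *Lmod1*, a leiomodin that starts actin filaments, from 1.18 to 16.3. *Myh11*, the smooth muscle myosin heavy chain and the most specific marker of mature smooth muscle in the set, reached at most 2.27 FPKM and was as low as 0.473. No member was listed at 0 in any library.

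**Figure D1:**
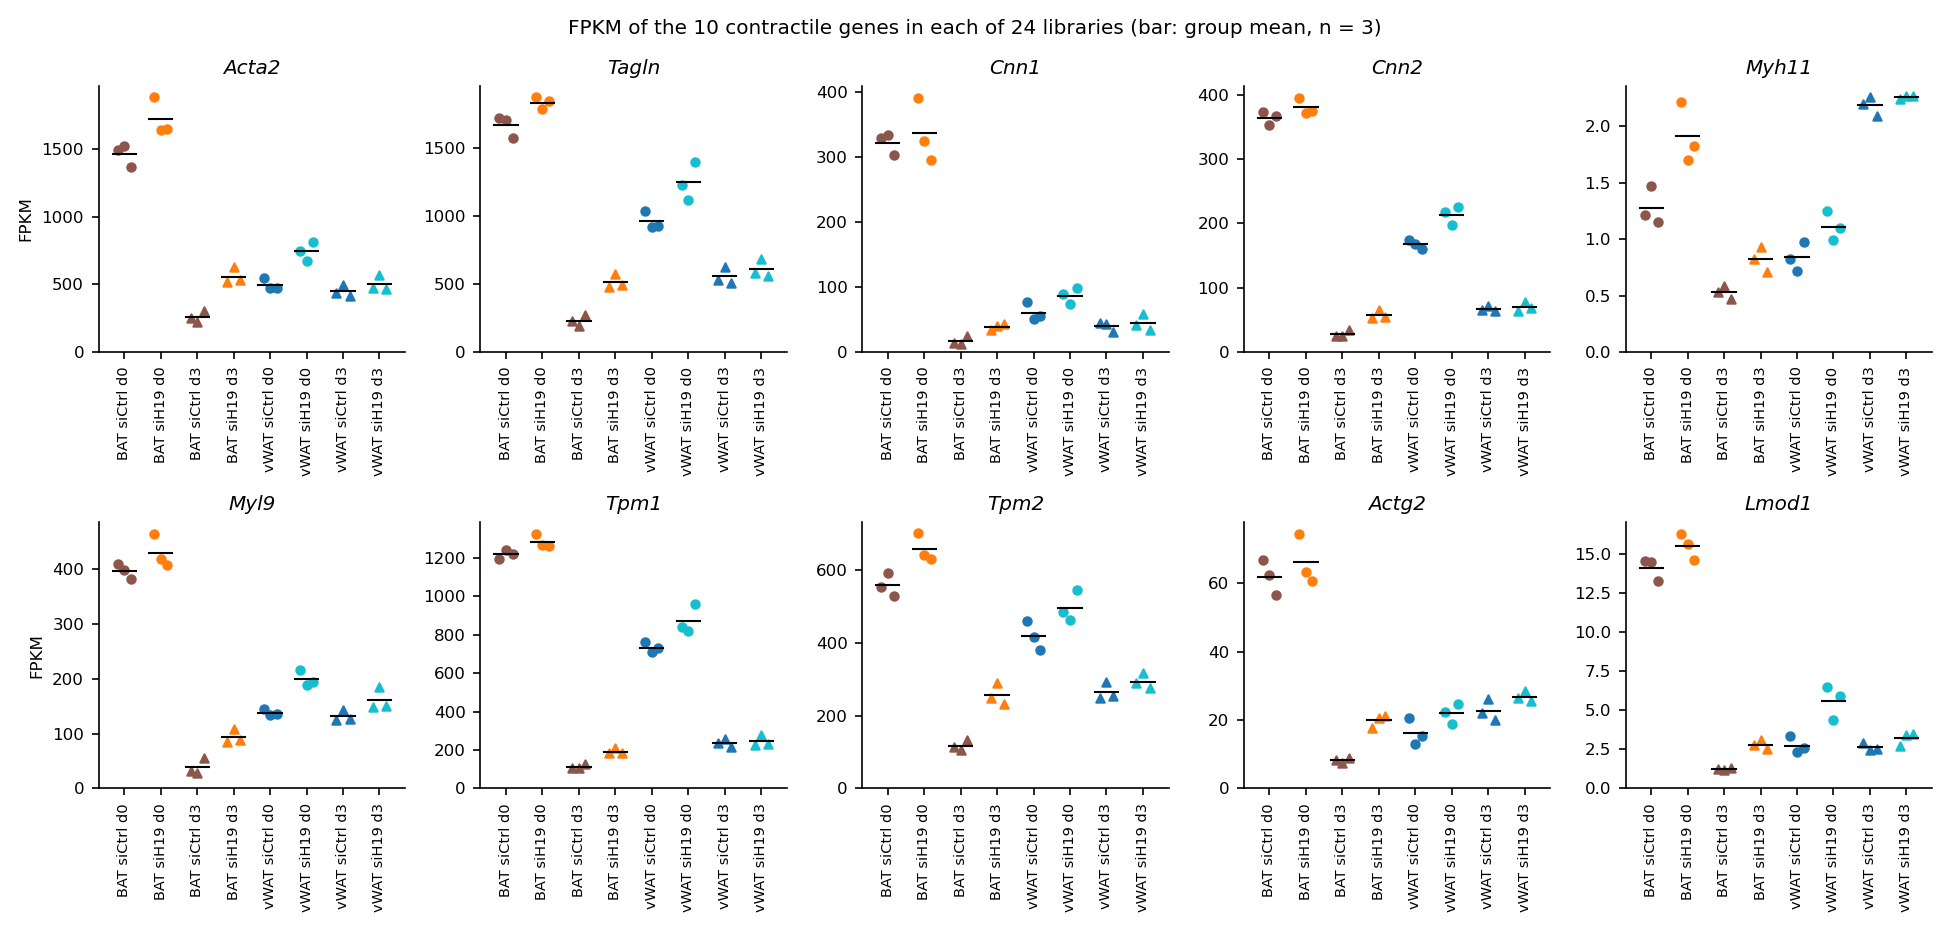
FPKM of each member (y axis, from 0, a scale of its own per panel) in the 3 libraries of each of the 8 groups (x axis), circles for d0, triangles for d3 and bars for group means. Every panel is lowest in siCtrl BAT cells at d3, where the siH19 libraries lie above their controls, and every panel but that of *Myh11* is highest in BAT cells at d0.

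The 9 members other than *Myh11* shared the top and the bottom of the order of the 8 groups. Their highest mean was that of siH19 BAT cells at d0, followed by siCtrl BAT cells at d0, and their lowest mean was that of siCtrl BAT cells at d3. The siH19 and siCtrl BAT groups at d0 overlapped for *Cnn1*, *Cnn2*, *Myl9* and *Actg2*. For *Tpm2* siCtrl BAT cells at d0 overlapped siH19 vWAT cells at d0. Between the top and the bottom the order differed. There siH19 BAT cells at d3 had the next-to-lowest mean for 6 members but not for *Acta2*, *Lmod1* and *Actg2*. For *Acta2* the means ran 1722, 1461 and 745 FPKM in siH19 BAT, siCtrl BAT and siH19 vWAT cells at d0. They went on with 556 in siH19 BAT cells at d3, 501 in siH19 vWAT cells at d3, 495 in siCtrl vWAT cells at d0 and 447 in siCtrl vWAT cells at d3, and ended with 259 in siCtrl BAT cells at d3. The 4 groups from 556 to 447 overlapped their neighbours in this order, and the other steps did not overlap. From the highest to the lowest group mean the span was 5.61-fold for *Tpm2*, 6.64-fold for *Acta2*, 11.4-fold for *Tpm1* and 20-fold for *Cnn1*. *Myh11* had another order, with its highest means of 2.26 and 2.18 FPKM in vWAT cells at d3, which overlapped each other. It reached 1 FPKM in all 3 libraries of a group in BAT cells at d0 and in vWAT cells at d3 alone. Between days or depots it thus passed the filter for testing, 3 libraries at 1 FPKM, only with the group where it was high, so its levels are given there and its call is not counted.

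The largest block of changes with siH19 was in BAT cells at d3, where all 9 members that could be tested were higher than in siCtrl. Differences are on the log2(FPKM + 1) scale from limma, genes were tested when at least 3 libraries reached 1 FPKM, and a gene was called when its p, adjusted over all genes tested by the method of Benjamini and Hochberg, was under 0.05 and its difference at least 1.3-fold. In this comparison 6.39% of all 12500 genes tested were called higher. The median difference of the 9 members was 1.12, against 0.05 over all genes tested. A difference in bulk RNA cannot tell fewer or more cells of a type from less or more RNA per cell.

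Among the actins, *Acta2* measured 249, 224 and 305 FPKM in the siCtrl libraries and 514, 626 and 528 FPKM in the siH19 libraries. The lowest siH19 library lay above the highest siCtrl library. The means of 259 ± 41.4 and 556 ± 60.7 FPKM (SD, n = 3) differed 2.15-fold, or by 1.11 with an SE of 0.13 on the log2 scale (limma, adjusted p = 0.0038). *Actg2* measured 8.40, 7.54 and 8.88 FPKM in siCtrl and 17.8, 20.8 and 21.2 FPKM in siH19, a 2.41-fold difference (1.17, SE 0.09, limma adjusted p = 0.0020). Both actin genes thus shifted to a similar degree from levels that differed widely. *Lmod1* measured 1.26, 1.18 and 1.29 FPKM against 2.80, 3.07 and 2.52, a 2.25-fold difference of means, which on the log2(FPKM + 1) scale came to 0.76 because the pseudocount of 1 weighs on low values (limma adjusted p = 0.0053).

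Among the myosin subunits, the regulatory light chain *Myl9* measured 32.5, 28.3 and 56.3 FPKM in siCtrl and 84.3, 108 and 87.6 FPKM in siH19. The third siCtrl library stood above the other two, yet below every siH19 library, and the difference was 1.29 with an SE of 0.25 (limma adjusted p = 0.018). *Myh11* measured 0.528, 0.582 and 0.473 FPKM in siCtrl and 0.823, 0.928 and 0.708 FPKM in siH19. These values did not overlap but were under 1 FPKM in all 6 libraries, so the gene was not tested here.

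The tropomyosins, which lie along the actin filament, were higher as well. *Tpm1* measured 105, 109 and 125 FPKM in siCtrl and 182, 208 and 182 FPKM in siH19, the smallest ratio of means among the 9 at 1.69-fold (0.75, SE 0.08, limma adjusted p = 0.0037). *Tpm2* measured 114, 105 and 132 FPKM against 248, 290 and 233 FPKM, a 2.19-fold difference (1.12, SE 0.11, limma adjusted p = 0.0029). Neither gene had overlapping groups. Both also give rise to striated muscle tropomyosins, and the table holds 1 value per gene, so isoforms could not be separated.

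The calponin and transgelin family, proteins that bind actin and tropomyosin, completed the set. *Tagln* measured 229, 194 and 269 FPKM in siCtrl and 480, 575 and 493 FPKM in siH19 (1.16, SE 0.13, limma adjusted p = 0.0033). *Cnn2* measured 24.6, 25.6 and 33.7 FPKM against 53.6, 65.1 and 54.6 FPKM (1.03, SE 0.13, limma adjusted p = 0.0055). *Cnn1* measured 13.6, 12.8 and 24.2 FPKM against 33.9, 39.8 and 42.9 FPKM (1.21, SE 0.23, limma adjusted p = 0.018). The third siCtrl library was again the highest of its group for *Tagln*, *Cnn2* and *Cnn1*.

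The third siCtrl BAT library at d3 was the highest of its group for 9 of the 10 members, all but *Myh11*, and without it all 9 tested members were still called. Leaving out another library moved the calls of *Cnn1* and *Myl9* to just beyond the threshold. Without siCtrl replicate 1, without siCtrl replicate 2 or without siH19 replicate 2, and likewise without the FPKM filter, 7 members were called (adjusted p of 0.052 to 0.059 for *Cnn1* and *Myl9*). Without siH19 replicate 3, 8 were called, since *Cnn1* had an adjusted p of 0.052. Scaling the libraries to a trimmed mean turned the calls over all genes from 799 higher and 272 lower into 625 higher and 416 lower, while 9 members were called higher under it.

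Genes called in the wider cytoskeletal lists were all higher too in BAT cells at d3, and the list medians were smaller. Of 11 non-muscle counterparts of the members, 8 were called higher and none lower, led by the calponin *Cnn3* (149 against 79 FPKM, 0.91) and the tropomyosin *Tpm4* (244 against 140 FPKM, 0.80). Cytoplasmic actin *Actb* was among them at 1733 against 1086 FPKM (0.67). Of 14 tested genes of dense plaques and adhesions, 7 were called higher, with the actin crosslinker *Actn1* (48 against 25.1 FPKM, 0.91) and the zyxin gene *Zyx* (86.2 against 46.9 FPKM, 0.87) ahead. Of 11 regulators of contraction, 2 were called higher, the actin-binding caldesmon gene *Cald1* (214 against 119 FPKM, 0.85) being the one with the larger difference. The myosin light chain kinase *Mylk* had 11 FPKM against 11.5. The list medians were 0.51, 0.44 and 0.16 for the counterparts, the plaque genes and the regulators.

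Of 7 tested SRF regulators, 2 were called higher, the LIM protein *Csrp1* (67.3 against 37.3 FPKM, 0.83) and *Tgfb1i1*, a paxillin-like adaptor (22.1 against 14.2 FPKM, 0.61). *Srf* itself had 11.1 FPKM against 9.70 (0.18, SE 0.06, limma adjusted p = 0.098), and its coactivator genes *Mkl1* and *Mkl2* differed by 0.29 and 0.18 with adjusted p of 0.072 and 0.35. *Myocd*, the smooth muscle and heart coactivator, averaged 0.513 FPKM against 0.088 and was under the filter, and the LIM protein *Fhl2* was not called at 18.5 against 9.55 FPKM (0.96, adjusted p = 0.076). Of 6 matrix genes of myofibroblasts, 3 were called higher, namely the collagen crosslinker *Lox* (563 against 270 FPKM, 1.06), the periostin gene *Postn* (375 against 232 FPKM, 0.69) and *Cthrc1* (55.3 against 35.1 FPKM, 0.64).

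**Figure D2:**
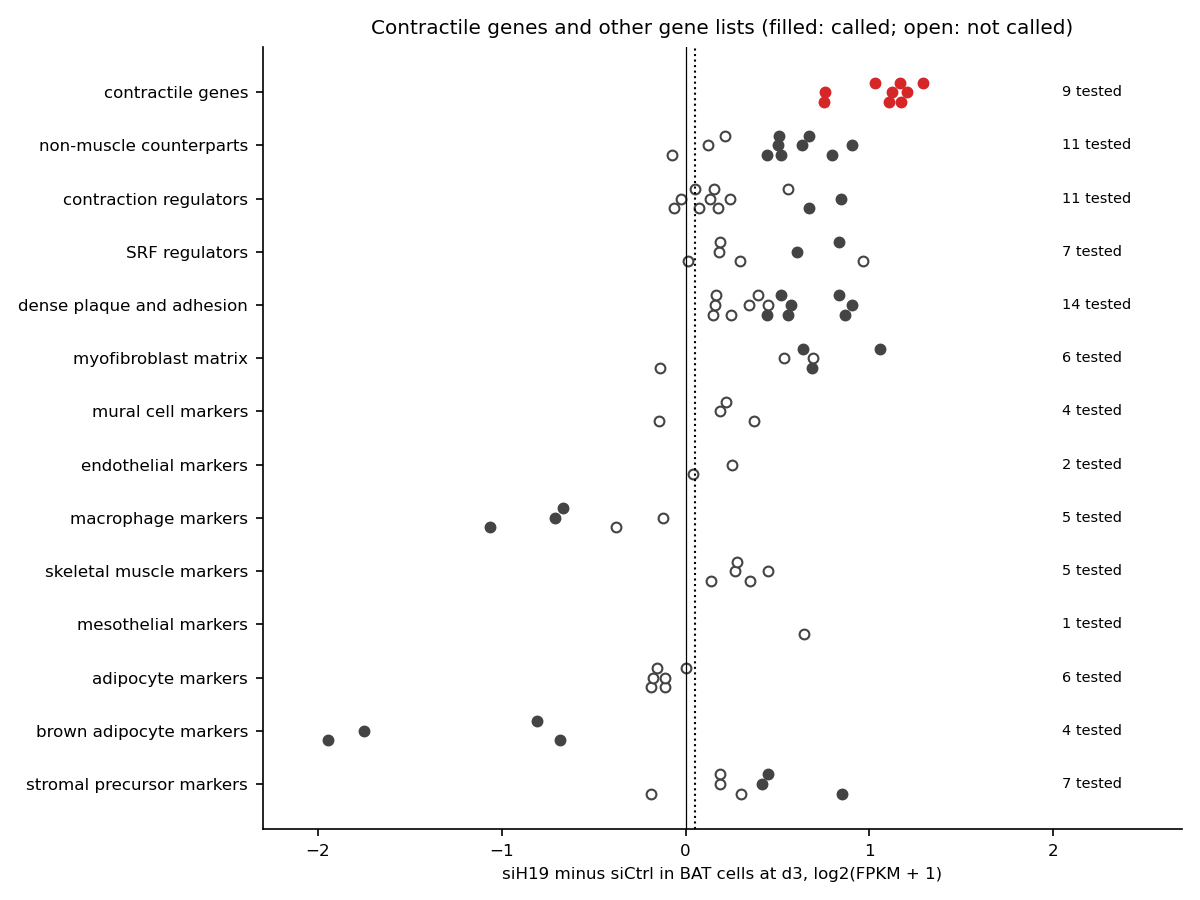
Difference between siH19 and siCtrl BAT cells at d3 on the log2(FPKM + 1) scale (x axis) for each tested gene of each list (rows), filled where called and open where not, with the dotted line at the median of all genes tested, 0.05. The 9 contractile genes sit between 0.75 and 1.29, the brown adipocyte markers between -1.95 and -0.68.

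Markers of other cells were read in the same libraries. Of 8 mural cell markers 4 were tested and none was called (limma, 2 at an unadjusted p under 0.05), *Pdgfrb* being the closest at 23.4 against 17.8 FPKM (adjusted p = 0.053), and their summed level ran from 83 to 96.3 FPKM in siCtrl and from 97.6 to 110 FPKM in siH19. The pericyte markers *Rgs5* and *Kcnj8* averaged under 0.4 FPKM in both groups, and *Higd1b* was listed at 0 in all 6 libraries. The part of mural cells in the result was not tested. None of the 5 tested skeletal muscle markers was called (limma, 2 at an unadjusted p under 0.05), and their list summed to 48.4 to 59.1 FPKM in siCtrl and 56.6 to 71.2 FPKM in siH19. None of the 2 tested endothelial markers and not the 1 tested mesothelial marker, *Krt19*, was called (limma, 0 at an unadjusted p under 0.05). Of 7 stromal precursor markers, 3 were called higher, *Ly6a* (456 against 252 FPKM, 0.85), *Thy1* (0.45) and *Pdgfra* (0.42), and the list summed to 2727 to 3024 FPKM in siCtrl and 3367 to 3617 FPKM in siH19. Macrophage markers moved the other way, 3 of 5 tested called lower (*C1qa* by -1.06, *Lyz2* by -0.71, *Adgre1* by -0.66), with sums of 134 to 165 FPKM in siCtrl and 82.4 to 94.1 FPKM in siH19. Of all 12500 genes tested, 272 were called lower in this comparison. All 4 brown adipocyte markers were called lower, *Cidea* (3.99 against 18.5 FPKM, -1.95) and *Ucp1* (2.85 against 12.1 FPKM, -1.75) most, while none of 6 general adipocyte markers was called (limma, 5 at an unadjusted p under 0.05), with differences from -0.19 to 0.00. The part of these other cells and of the precursor share in the contractile difference was not tested.

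In BAT cells before induction, no member was called with siH19 (limma, 0 of 10, with 1.94% of all genes called and 4 members at an unadjusted p under 0.05). All 10 differences were above 0 with a median of 0.12, against -0.03 over all genes tested. *Acta2* measured 1495, 1519 and 1369 FPKM in siCtrl and 1881, 1638 and 1647 FPKM in siH19, a difference of 0.24 with a 95% interval of 0.08 to 0.40 (limma adjusted p = 0.12). *Tpm2* differed by 0.24 (0.09 to 0.38, adjusted p = 0.089) and *Myh11* by 0.35 (0.08 to 0.62, adjusted p = 0.16). *Cnn1* measured 329, 333 and 304 FPKM against 390, 325 and 295 FPKM, groups that overlapped (0.06, interval -0.19 to 0.30). In the same libraries 4 of 6 adipocyte markers were called lower, among them *Adipoq* (84.4 against 206 FPKM, -1.30), the macrophage genes *C1qa* (-1.03) and *Lyz2* (-0.63) were called lower, and the mesothelial marker *Krt19* was called higher (8.86 against 5.15 FPKM, 0.68). Their part in these values was not tested.

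In vWAT cells before induction, 2 members were called higher with siH19, *Acta2* and *Myl9*, of 9 tested (0.329% of all genes called higher). *Acta2* measured 544, 470 and 473 FPKM in siCtrl and 749, 675 and 809 FPKM in siH19 without overlap (0.59, SE 0.09, limma adjusted p = 0.027). *Myl9* measured 144, 133 and 135 FPKM against 215, 189 and 193 FPKM (0.53, SE 0.06, limma adjusted p = 0.015). Both genes thus had every siH19 library above every control. The largest difference of all, that of *Lmod1*, was not called at 3.35, 2.33 and 2.57 FPKM against 6.48, 4.36 and 5.95 FPKM (0.81, 95% interval 0.43 to 1.19, limma adjusted p = 0.063). All 9 differences were above 0 with a median of 0.42, against -0.03 over all genes tested. The other 6 tested members lay between 0.25 and 0.52. Neither call held without siCtrl replicate 2 (adjusted p = 0.12 for *Acta2* and 0.077 for *Myl9*) or without siCtrl replicate 3 (0.095 and 0.065), and that of *Acta2* was lost without siH19 replicate 1 or 3 (0.089 and 0.064). With the replicate number as a block no member was called (adjusted p = 0.077 and 0.053), nor without the FPKM filter (0.095 and 0.053). In a joint fit of all 24 libraries *Myl9* had an adjusted p of 0.066 and *Lmod1* one of 1.4e-04, and *Cnn2* was called as well under trimmed-mean scaling (0.030). Trimmed-mean scaling turned the calls over all genes from 43 higher and 157 lower into 63 higher and 130 lower. As in BAT cells, 4 of 6 adipocyte markers were called lower, led by *Plin1* (144 against 253 FPKM, -0.81), the mural marker *Mcam* was called lower (16.2 against 32.3 FPKM, -0.96), and so was the matrix gene *Cthrc1* (-0.57). The stromal precursor markers summed to 10443 to 11101 FPKM in siCtrl and 12186 to 12451 FPKM in siH19, with none of 7 called (limma, 5 at an unadjusted p under 0.05). The part of these cells was not tested.

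In vWAT cells at d3 no member was called (limma, 0 of 10, with 0.0305% of all genes called and 1 member, *Myl9*, at an unadjusted p under 0.05). *Acta2* measured 435, 494 and 412 FPKM in siCtrl and 472, 566 and 464 FPKM in siH19, groups that overlapped, with a difference of 0.16 and a 95% interval of -0.07 to 0.40. *Myl9* measured 125, 142 and 127 FPKM against 148, 186 and 150 FPKM (0.28, interval 0.05 to 0.52, limma adjusted p = 0.43). The 10 differences had a median of 0.15 and none exceeded 0.28. The intervals of *Cnn1* (-0.39 to 0.69) and *Tpm1* (-0.19 to 0.30) leave room for changes of either sign.

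**Figure D3:**
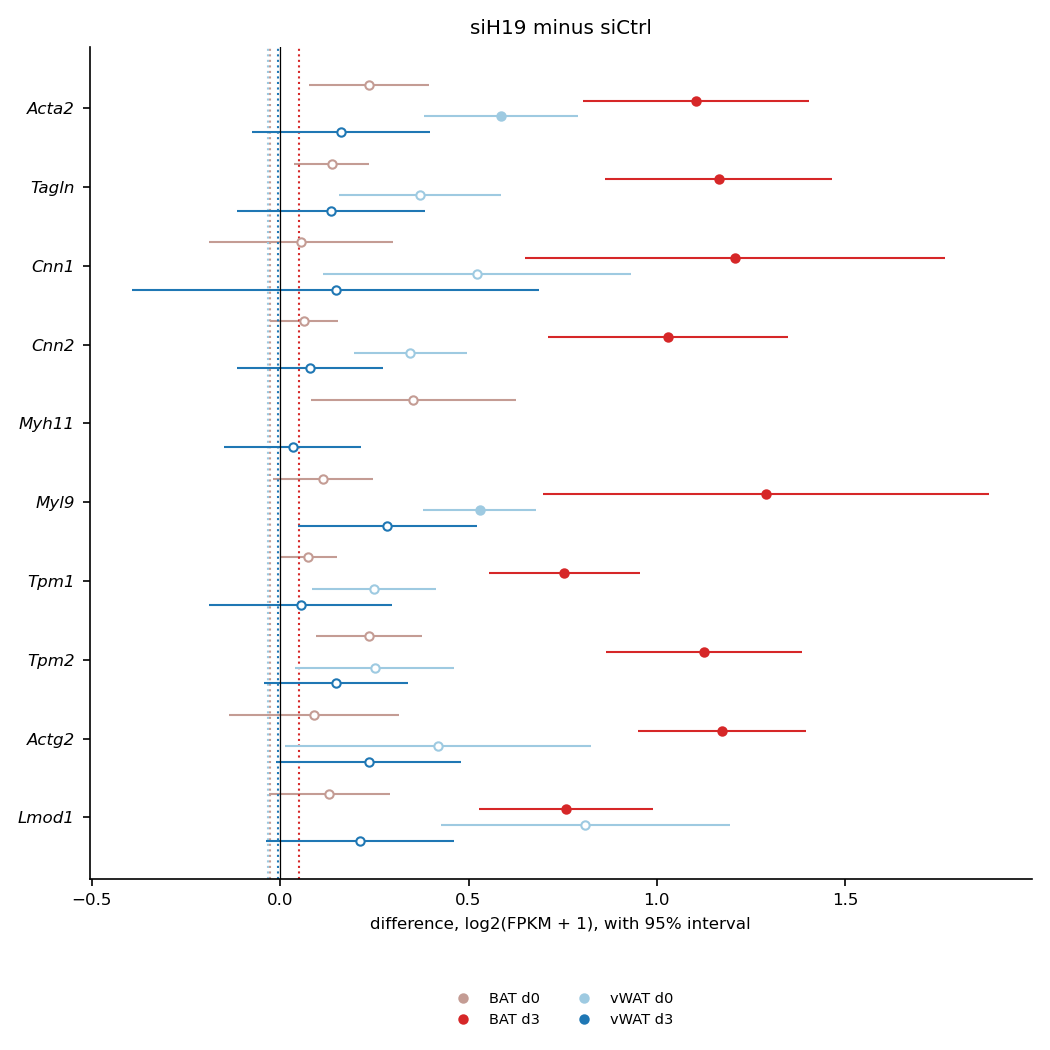
siH19 minus siCtrl for each member (rows) in BAT and vWAT cells at d0 and d3 on the log2(FPKM + 1) scale (x axis), with limma's 95% interval, filled where called, dotted lines at the medians of all genes tested. BAT cells at d3 stand to the right with values from 0.75 to 1.29, while the values in vWAT cells at d3 reach at most 0.28.

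The siRNA effect was then compared between depots and days in fits with an interaction term, which share control libraries with the comparisons above. At d3 it was larger in BAT than in vWAT cells for 7 of 10 members, *Acta2*, *Tagln*, *Cnn2*, *Tpm1*, *Tpm2*, *Actg2* and *Lmod1* (limma, 7.02% of all genes called in that direction). For *Acta2* the difference of effects was 0.94 with a 95% interval of 0.55 to 1.34 (limma adjusted p = 0.0085), and for *Tpm2* it was 0.98 (0.65 to 1.31, adjusted p = 0.0033). *Cnn1* (1.06, adjusted p = 0.095), *Myl9* (1.00, adjusted p = 0.059) and *Myh11* (0.22, adjusted p = 0.24) did not pass. Without siCtrl BAT replicate 3, *Cnn1* and *Myl9* passed as well (adjusted p = 0.026 and 0.0037), as they did in the joint fit (0.036 and 0.0073). *Lmod1* no longer passed without any 1 of 6 libraries (siCtrl BAT replicate 2, siH19 BAT replicates 1 and 2, siCtrl vWAT replicates 1 and 3, siH19 vWAT replicate 1, adjusted p of 0.051 to 0.067), without the FPKM filter (0.072) or with the replicate number as a block (0.058). Trimmed-mean scaling turned the calls over all genes from 966 above and 485 below 0 into 664 and 728.

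Within BAT cells the effect was larger at d3 than at d0 for 9 of 10 members, all but *Myh11* (limma, 7.79% of all genes called in that direction). *Actg2* had the lowest adjusted p at 0.0014, with a difference of effects of 1.08 (0.78 to 1.39). For *Cnn1* (1.15) and *Myl9* (1.18) the adjusted p was 0.031 and 0.029. Both calls were lost with the replicate number as a block (adjusted p = 0.054 for each, 7 members left), without the FPKM filter (0.070 and 0.066) and without siCtrl d0 replicate 1, 2 or 3, siCtrl d3 replicate 1 or 2, siH19 d0 replicate 2 or 3 or siH19 d3 replicate 2 (adjusted p of 0.055 to 0.070), and *Cnn1*'s also without siH19 d3 replicate 3 (0.067). Trimmed-mean scaling turned the calls over all genes from 1058 above and 172 below 0 into 605 and 260, and *Cnn1* then had an adjusted p of 0.051. At d0 the effect differed between depots for no member (limma, 0 of 10, 1.02% of all genes called, 5 members at an unadjusted p under 0.05), *Myl9* being closest at -0.42 (adjusted p = 0.053). Within vWAT cells it differed between days for no member (0 of 10, 1.73% of all genes called, 3 at an unadjusted p under 0.05), with a median of -0.24.

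The contractile genes of BAT cells were lower after induction with either siRNA. From d0 to d3 all 9 members other than *Myh11* were called lower in siCtrl cells (35.3% of all genes called lower). *Cnn1* went from 329, 333 and 304 FPKM to 13.6, 12.8 and 24.2 FPKM, a 19.1-fold lower mean (-4.23, SE 0.22, limma adjusted p = 3.9e-06). *Cnn2* went from 373, 353 and 366 FPKM to 24.6, 25.6 and 33.7 FPKM (-3.67, SE 0.11, limma adjusted p = 3.2e-07). *Cnn1* and *Cnn2* thus kept 5.24% and 7.67% of their d0 means, against 17.7% for *Acta2* and 21% for *Tpm2*. In siH19 cells the same 9 were called lower too (29.8% of all genes called lower), and the share kept was 11.5% for *Cnn1*, 15.2% for *Cnn2*, 32.3% for *Acta2* and 39.1% for *Tpm2*. *Myh11*, under 1 FPKM in every BAT library at d3, averaged 1.28 FPKM at d0 and 0.528 at d3 in siCtrl cells and 1.91 and 0.820 in siH19 cells. The median share kept by the 10 members was 11.6% in siCtrl and 24.9% in siH19 BAT cells.

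The same step in siCtrl vWAT cells split the set. Of the 9 members other than *Myh11*, 5 were called lower (23.9% of all genes called lower), *Cnn2* (-1.33), *Tpm1* (-1.63), *Tagln* (-0.79), *Tpm2* (-0.66) and *Cnn1* (-0.60, limma adjusted p = 0.032). *Actg2* was called higher (26.3% of all genes called higher). It went from 20.5, 13.1 and 15.4 FPKM to 22.1, 26.3 and 20.1 FPKM, groups that overlapped (0.47, SE 0.17, limma adjusted p = 0.047). *Acta2*, at 544, 470 and 473 FPKM before and 435, 494 and 412 FPKM after, was not called (-0.15, interval -0.35 to 0.06), nor were *Myl9* (-0.07, interval -0.21 to 0.08) and *Lmod1* (-0.04, interval -0.33 to 0.25). *Myh11* had 0.821, 0.718 and 0.976 FPKM before and 2.2, 2.26 and 2.09 FPKM after. The call of *Actg2* was lost without siCtrl d0 replicate 2 or 3 or siCtrl d3 replicate 1 or 2 (adjusted p of 0.088 to 0.13), with the replicate number as a block (0.077), without the FPKM filter (0.10) and under trimmed-mean scaling (0.050). The call of *Cnn1* was lost without siCtrl d0 replicate 1 or 3 or siCtrl d3 replicate 3 (0.050 to 0.076) and without the FPKM filter (0.079).

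In siH19 vWAT cells 7 members were called lower (24.5% of all genes called lower) and none of the 9 other than *Myh11* higher (28.2% of all genes called higher). *Myh11* had 1.25, 0.987 and 1.09 FPKM before and 2.24, 2.27 and 2.26 FPKM after, so that 2 of its 3 d0 libraries also reached 1 FPKM. *Acta2* was among those called lower there, from 749, 675 and 809 FPKM to 472, 566 and 464 FPKM (-0.57, SE 0.10, limma adjusted p = 0.0020), as was *Lmod1* (-0.64). *Myl9* was called lower as well without siH19 d3 replicate 2 (-0.42, adjusted p = 0.0032). The members kept a median of 77.7% of their d0 means in siCtrl and 58.1% in siH19 vWAT cells.

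In siCtrl cells the change with induction differed between the depots for all 9 members other than *Myh11*. The depot by day term was below 0 for each (limma, 28.1% of all genes called in that direction), from -3.63 for *Cnn1* and -3.31 for *Myl9* to -1.59 for *Tpm2*, and all 9 were called without any 1 library. In siCtrl BAT cells all 11 non-muscle counterparts and all 7 tested SRF regulators were called lower at d3, with *Actb* going from 8535 to 1086 FPKM and the LIM protein gene *Fhl2* from 99.2 to 9.55 FPKM. In siCtrl vWAT cells 9 of 11 and 6 of 7 were called lower and 1 counterpart, *Myl12b*, higher. *Mylk* was called higher in both, from 7.75 to 11.5 FPKM in BAT and from 26.6 to 47.7 FPKM in vWAT cells. All 6 adipocyte markers were called higher and all 7 stromal precursor markers lower in BAT cells, while in vWAT cells 3 precursor markers were called lower and 2 higher. The summed precursor level fell from 12659 to 13568 FPKM down to 2727 to 3024 FPKM in BAT cells and was 10443 to 11101 FPKM before and 10161 to 11190 FPKM after in vWAT cells. Other lists moved in the same libraries. In siCtrl BAT cells all 6 matrix genes were called lower, and of 6 tested mural markers 5 were called lower and *Mcam* higher (60.4 against 26.3 FPKM), the list summing to 154 to 166 FPKM at d0 and 83 to 96.3 FPKM at d3. Called lower there were also 4 of 6 tested skeletal muscle markers (sums of 60.8 to 95.4 and 48.4 to 59.1 FPKM), 3 of 4 tested endothelial markers (9.64 to 13.1 and 3.73 to 4.99 FPKM) and the 1 tested mesothelial marker, *Krt19*. Fewer mural, skeletal muscle and endothelial markers passed the filter among the BAT libraries at d3. Some of those counted here therefore entered only through d0, where they were high, and a call of lower for them was set by the filter. Of 5 tested macrophage markers 3 were called lower and 1 higher, with sums of 132 to 164 and 134 to 165 FPKM. In siCtrl vWAT cells 4 of 5 mesothelial markers were called lower (114 to 132 and 39.1 to 45.4 FPKM), as were 5 of 6 matrix genes. Of 6 macrophage markers 3 were called higher and 3 lower (290 to 324 and 511 to 556 FPKM), and of 6 tested mural markers 3 lower and 2 higher (110 to 117 and 101 to 112 FPKM). All 6 adipocyte markers were called higher in vWAT cells too. The part of the precursor share and of these other cells in the day results was not tested.

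The order of the depots in siCtrl cells was not the same on both days. In siCtrl cells at d0, all 9 members other than *Myh11* were called higher in BAT than in vWAT cells (10.2% of all genes called higher). *Cnn1* was 5.31-fold higher (2.41, SE 0.15), *Lmod1* 5.13-fold (2.02), *Actg2* 3.79-fold (1.88) and *Acta2* 2.95-fold (1.56), each with a limma adjusted p of at most 1.3e-04. *Tpm2* differed least among those called, at 554, 593 and 528 FPKM against 460, 416 and 379 FPKM (0.42, limma adjusted p = 0.0052), and its fold was under 1.3 without siCtrl BAT replicate 2 or siCtrl vWAT replicate 3 (0.37 and 0.35). In siH19 cells at d0 the same 9 were called higher in BAT (9.82% of all genes called higher), *Cnn1* by 1.94 and *Acta2* by 1.21, and *Tpm2* was under the fold without siH19 BAT replicate 1 or siH19 vWAT replicate 2 (0.36 and 0.35).

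At d3 all 9 members other than *Myh11* were called lower in siCtrl BAT than in siCtrl vWAT cells (32.1% of all genes called lower). *Myl9* was 3.37-fold lower (39.1 ± 15.1 against 132 ± 9.41 FPKM, SD, n = 3) and *Acta2* 1.73-fold (259 ± 41.4 against 447 ± 42.6 FPKM, -0.79, limma adjusted p = 0.0012). *Myh11* averaged 0.528 ± 0.054 FPKM in BAT and 2.18 ± 0.085 FPKM in vWAT cells. With siH19 2 of the 9 were called lower in BAT cells at d3 (25.2% of all genes called lower), *Myl9* (-0.78) and *Actg2* (-0.42, limma adjusted p = 0.0050). *Acta2* measured 514, 626 and 528 FPKM in siH19 BAT and 472, 566 and 464 FPKM in siH19 vWAT cells, groups that overlapped (0.15, 95% interval -0.10 to 0.40, limma adjusted p = 0.25). For *Tpm2* the interval was -0.41 to 0.02 and for *Cnn1* -0.62 to 0.31, and that of *Lmod1* also held both signs. *Tpm1* was lower in BAT cells without overlap (-0.36, interval -0.59 to -0.13, limma adjusted p = 0.016) but under 1.3-fold. The intervals of *Cnn2* (-0.52 to -0.039, limma adjusted p = 0.051) and *Tagln* (-0.48 to -0.007, adjusted p = 0.074) were also negative throughout. With *Myh11* included, 6 of 10 members had an unadjusted p under 0.05 (limma). *Actg2* was under 1.3-fold in the siH19 comparison without BAT replicate 1 (-0.34) and under trimmed-mean scaling (-0.35), as it was without siH19 vWAT replicate 2 (-0.37). *Tpm1* was called in addition without siH19 BAT replicate 2 (-0.42) or without siH19 vWAT replicate 1 (-0.42) or 3 (-0.40).

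Depot was also tied to the name prefix of the libraries, whose meaning the labels do not give, to medium at d3, to depth and to other cells. Trimmed-mean scaling shifted the median difference of all genes between BAT and vWAT cells by 0.11 in siCtrl and 0.10 in siH19 cells at d0 and by 0.13 in siCtrl cells at d3, and it turned the calls over all genes in siCtrl cells from 1343 higher and 2753 lower into 1821 and 1973 at d0 and from 2162 and 4216 into 2844 and 3326 at d3. The calls in siH19 cells at d0 went from 1282 and 2690 to 1709 and 2037. No member changed direction under it in these comparisons. The 7 skeletal muscle markers summed to 48.4 to 110 FPKM in the BAT libraries and 5.11 to 8.70 FPKM in the vWAT libraries, with the muscle factor *Myog* at 14.3 FPKM in siCtrl BAT cells at d0 and listed at 0 in all 12 vWAT libraries. The 5 mesothelial markers summed to 37.3 to 132 FPKM in vWAT and 1.36 to 10 FPKM in BAT libraries, and the 6 macrophage markers to 288 to 647 FPKM in vWAT and 82.4 to 165 FPKM in BAT libraries. Among the mural markers *Kcnj8* had 3.38 FPKM in siCtrl vWAT and 0.225 FPKM in siCtrl BAT cells at d0, while *Cspg4* had 2.29 and 8.18 FPKM. Their part in the depot result was not tested.

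**Figure D4:**
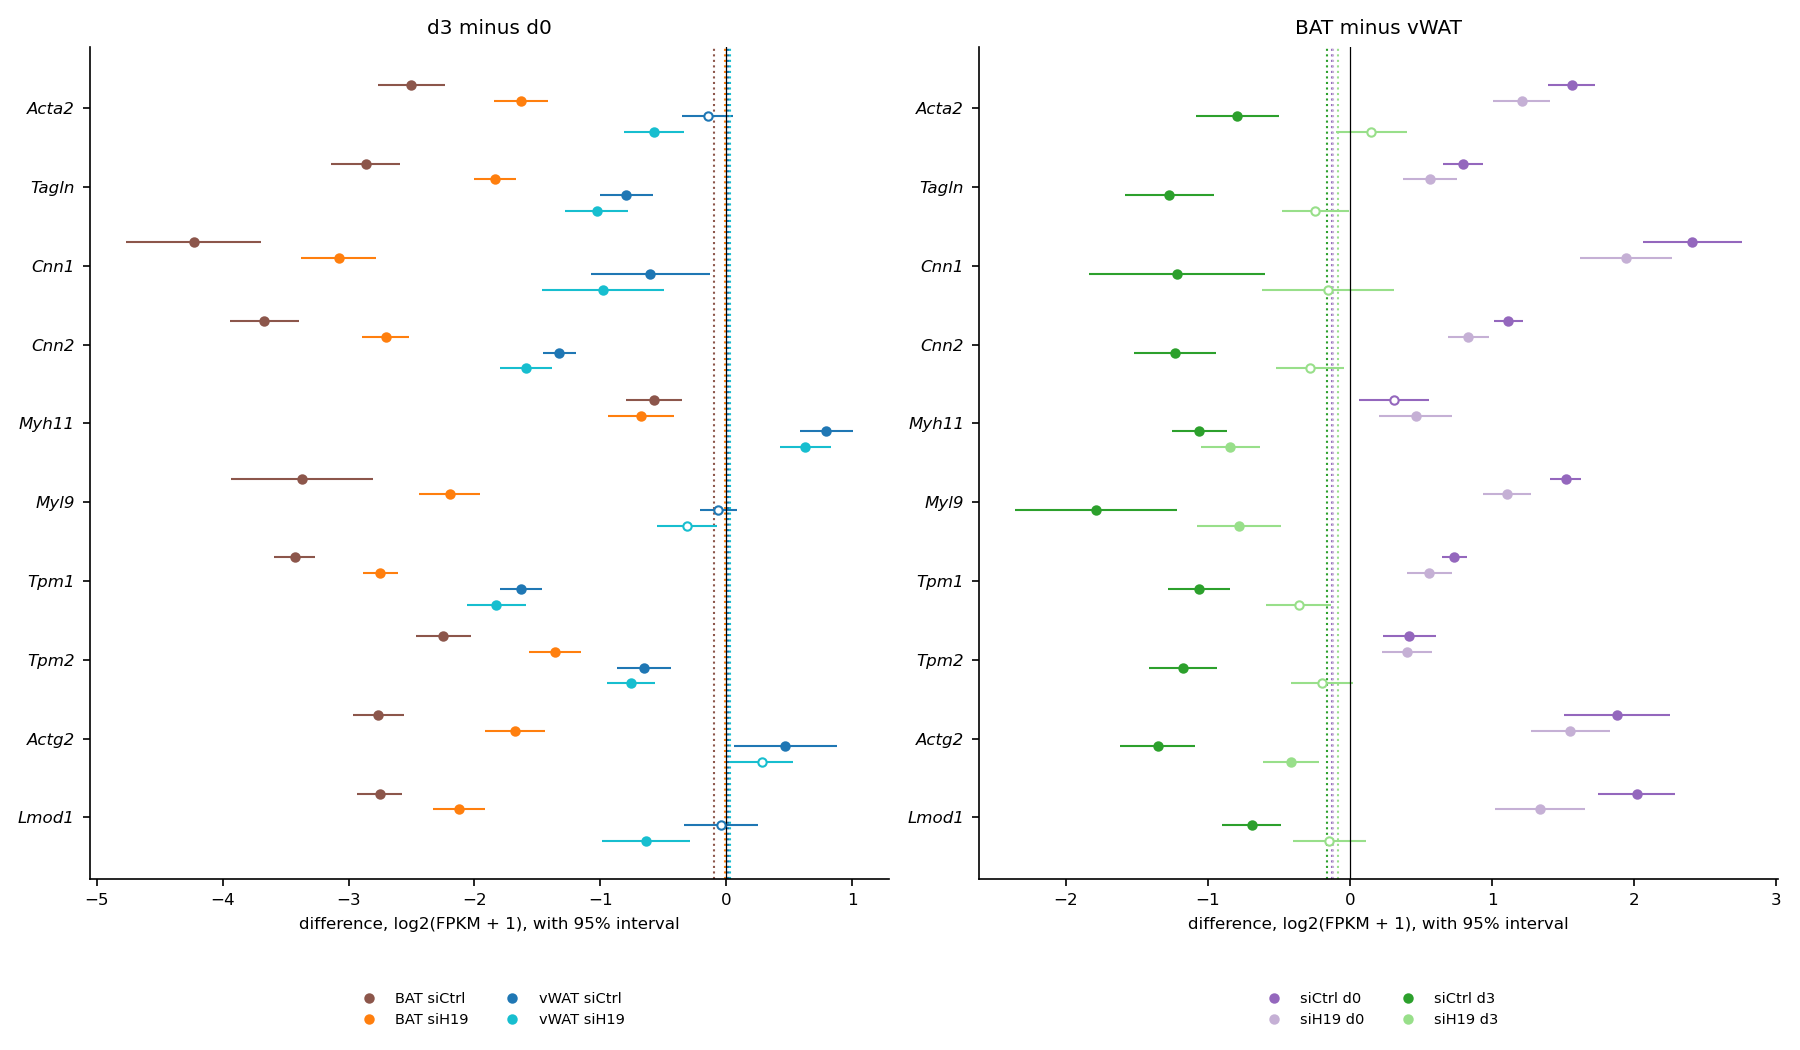
Left, d3 minus d0 in each depot and siRNA, and right, BAT minus vWAT in each siRNA and day, for each member (rows) on the log2(FPKM + 1) scale (x axes) with limma's 95% intervals, filled where called, dotted lines at the medians of all genes tested. On the left the BAT values lie between -4.23 and -0.57, and on the right the d0 values are all above 0 and the siCtrl d3 values all below 0. The markers of *Myh11* are filled where limma called it, although it passed the filter there only with the libraries where it was high.

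Over the 8 group means, which share libraries with every comparison, the profile of *Acta2* was closest to those of *Lmod1* and *Cnn1* among the members (Pearson r = 0.989 and 0.985 on the log2(FPKM + 1) scale), followed by *Actg2* (0.948), *Myl9* (0.944), *Tagln* (0.922), *Cnn2* (0.915), *Tpm2* (0.896) and *Tpm1* (0.866), with *Myh11* far off at 0.375. Among the other named genes of the 14694 with at least 3 libraries at 1 FPKM, the 5 closest were *Ahnak* (0.992), *Polk* (0.988), *Ssh1* (0.982), *Kirrel* (0.980) and *Epb41l3* (0.979). These are descriptions over 8 points.

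The members lie apart in the genome in the files' build, GRCm38. *Acta2* (ENSMUSG00000035783) is at chr19:34241090-34255336, *Actg2* (ENSMUSG00000059430) at chr6:83512905-83536265, *Lmod1* (ENSMUSG00000048096) at chr1:135324807-135368065, *Myl9* (ENSMUSG00000067818) at chr2:156775420-156781658 and *Myh11* (ENSMUSG00000018830) at chr16:14194527-14291408. *Tpm2* (ENSMUSG00000028464) is at chr4:43514711-43523765, *Cnn2* (ENSMUSG00000004665) at chr10:79988584-79996062, and 3 members share chromosome 9, *Cnn1* (ENSMUSG00000001349) at chr9:22099216-22109630, *Tagln* (ENSMUSG00000032085) at chr9:45929619-45936058 and *Tpm1* (ENSMUSG00000032366) at chr9:67022590-67049406. No run of 75 bases from any annotated transcript of a member occurred in a transcript of another gene, actins included. *Tagln* overlaps *Pcsk7* and the antisense gene *Gm48529* on the other strand, *Lmod1* overlaps a small nuclear RNA gene, *Gm22796*, and whether strand was used in the authors' counting is not given in the sources used here, so reads of these genes may not be separable.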

How the data were processed

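RNA-seq of 24 libraries, 3 for each combination of depot, siRNA and day, was analysed from 1 table of 49452 genes. The authors deposited FPKM values, made per the labels and the study's methods with the QuickNGS pipeline, TopHat2 2.0.10, Cufflinks 2.2.1 (the study's methods name another version) and Ensembl annotation on GRCm38.p5. The FPKM unit is named in the methods and not in the table, and the labels and methods differ on the read layout. Counts were not used here, so depth is known only in relative terms and no counting intervals are given. FPKM were analysed as log2(FPKM + 1) in limma 3.58.1 (R 4.3.3, trend) with a filter of 1 FPKM in at least 3 libraries. Each comparison used its own 6 libraries, and 12 for an interaction. A gene was called at an adjusted p under 0.05 (Benjamini-Hochberg over all genes tested) and at least 1.3-fold, with no fold asked of interactions. The procedure was tested on simulated data. The members, the other gene lists and the tests were chosen with earlier results of these data known. All 10 members entered the counts of each comparison, apart from *Myh11* where stated, but not every member is named in each. Of the other lists, up to 2 called genes with the largest rise and 2 with the largest fall were named. Some genes behind counts of 5 or fewer and the 5 genes most like *Acta2* were named as well. *Fhl2* in BAT cells at d3, *Krt19*, *Mylk*, *Actb*, *Srf*, *Mkl1*, *Mkl2*, *Myocd*, *Pdgfrb*, *Rgs5*, *Kcnj8*, *Higd1b*, *Cspg4* and *Myog* were named after their values were seen. Alternatives were a pseudocount of 0.1, no filter, trimmed-mean scaling, a joint fit of 24 libraries, no minimum fold, the replicate number as a block, and leaving out each library. Shared sequence was searched in GENCODE transcripts with windows of 75 bases. At most 0.0055% of values were identical between replicates, and all 24 libraries were counted as separate.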

Additional observations from a re-analysis of the deposited data

Results flagged for a closer look

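Interaction terms singled out members whose change under the same contrast differed between the depots or days. Values are differences of effects on the log2(FPKM + 1) scale with limma's adjusted p under 0.05. At d3 the siRNA effect in BAT cells exceeded that in vWAT cells by 1.03 for *Tagln*, 0.98 for *Tpm2*, 0.95 for *Cnn2*, 0.94 for *Acta2*, 0.94 for *Actg2*, 0.70 for *Tpm1* and 0.55 for *Lmod1*. In BAT cells the siRNA effect at d3 exceeded that at d0 by 1.18 for *Myl9*, 1.15 for *Cnn1*, 1.08 for *Actg2*, 1.03 for *Tagln*, 0.97 for *Cnn2*, 0.89 for *Tpm2*, 0.87 for *Acta2*, 0.68 for *Tpm1* and 0.63 for *Lmod1*. In siCtrl cells the change from d0 to d3 in BAT cells minus that in vWAT cells was -3.63 for *Cnn1*, -3.31 for *Myl9*, -3.23 for *Actg2*, -2.71 for *Lmod1*, -2.35 for *Acta2*, -2.35 for *Cnn2*, -2.07 for *Tagln*, -1.80 for *Tpm1*, -1.59 for *Tpm2* and -1.37 for *Myh11*, which passed the filter only through BAT cells at d0 and vWAT cells at d3. Groups of 3 were not examined for outlying samples.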

How the results depend on the processing

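Of the member values recomputed under the alternatives that keep every library, 927 kept their direction and side of the threshold, 19 lost the call, 11 gained it and 1 changed sign, *Myh11* in the BAT day by siRNA term at 0.003 with a pseudocount of 0.1. With 1 library left out, 1223 kept both, 49 lost and 6 gained the call, and 12 uncalled values changed sign. Over the libraries left out, *Cnn1* ranged from -0.056 to 0.146 in BAT cells at d0, from -0.058 to 0.325 in vWAT cells at d3 (below 0, at -0.025, in 1 other case) and from -0.334 to 0.048 between depots in siH19 cells at d3. *Tpm1* ranged from -0.041 to 0.120 in vWAT cells at d3, *Lmod1* from -0.123 to 0.070 from d0 to d3 in siCtrl vWAT cells, and *Tpm2* from -0.085 to 0.053 in the depot by siRNA term at d0. The count of members called higher in vWAT cells at d0 went from 2 to 0 without the filter and with the replicate number as a block, and ranged from 0 to 2 with 1 library left out. These counts include *Myh11*, which is not counted above between days and depots. The count called higher from d0 to d3 in siCtrl vWAT cells went from 2 to 1 without the filter, under trimmed-mean scaling and with the block, and ranged from 0 to 2 with 1 library left out. In siH19 vWAT cells it went from 1 to 2 without a minimum fold. The count called lower between depots in siH19 cells at d3 ranged from 1 to 4 with 1 library left out. The count below 0 in the depot by siRNA term at d0 went from 0 to 1 under trimmed-mean scaling, in the joint fit and with the block.

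Same-numbered libraries did not deviate together (r from -0.113 to 0.062 over 36 pairs, and in 8 of them a library correlated best with its own number). The labels do not say whether they share a culture, and this check cannot tell. The number was used as a block only as an alternative. With the block 9 members were called higher in BAT cells at d3, as without it, 7 of 9 in the BAT day by siRNA term and 6 of 7 in the depot by siRNA term at d3.

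Calls over all genes moved by more than 1.5 times in places. In BAT cells at d0, 245 became 35 without the filter, 526 in the joint fit, 2 with the block and 395 without a minimum fold. In vWAT cells at d0, 200 became 65, 378 and 2 without the filter, in the joint fit and with the block. In vWAT cells at d3, 4 became 15 in the joint fit and 0 with the block, and in BAT cells at d3, 1071 became 2023 without a minimum fold. Between depots in siCtrl cells at d0, 4096 became 6386 without a minimum fold. The depot by siRNA term at d0 gave 140, and 85, 302 and 81 without the filter, in the joint fit and with the block. With 1 library left out the ranges were 4 to 74 and 631 to 916 in BAT cells at d0 and d3, 37 to 122 and 1 to 5 in vWAT cells at d0 and d3, and 35 to 110, 889 to 1432, 801 to 1091 and 127 to 241 for the depot by siRNA terms at d0 and d3 and the day by siRNA terms in BAT and vWAT cells. The causes were not tested. At the low values of *Myh11*, and of *Lmod1* outside BAT cells at d0, the pseudocount understates changes most, and 3 libraries per group limit every call.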

Other observations

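Summed over the 10 members, the contractile genes made up 0.847% ± 0.026 (SD, n = 3) of all FPKM in siCtrl BAT cells at d0 and 0.0998% ± 0.015 at d3. In siH19 BAT cells the shares were 0.938% ± 0.044 and 0.213% ± 0.023. In vWAT cells the siCtrl libraries held 0.400% ± 0.026 at d0 and 0.216% ± 0.019 at d3, and the siH19 libraries 0.520% ± 0.036 and 0.234% ± 0.026.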
